A study of Triticum aestivum with 161 samples.

Results

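The wheat Affymetrix array carries a cluster of 59 probe sets whose IDs share the start TaAffx.128414, out of 61288 probe sets on the array. All 59 were taken by that start alone, with no filter on their values, and below they are named by the rest of their IDs, such as 215.S1_s_at. The annotation gave 24 of them the gene rbcl and gave the other 35 no gene. The name rbcl therefore rests on 24 of 59 members, and 3 of the 12 members with the brightest signals carry it.

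Rubisco, the enzyme that fixes carbon dioxide in photosynthesis, is built from a large subunit encoded by rbcL in the chloroplast genome and a small subunit encoded by rbcS in the nucleus. Chloroplast genes are present in many copies per cell, and fragments of chloroplast DNA have also been copied into plant nuclear genomes. In a developing wheat caryopsis, the single-seeded fruit that becomes the grain, the green tissue is the inner pericarp that surrounds the starchy endosperm. The arrays measured whole caryopses, so pericarp, endosperm and embryo were read together. The annotation ties the symbol rbcl to an entry of the nuclear genome assembly, and these signals cannot tell a chloroplast transcript from a nuclear copy.

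Caryopses of field-grown wheat (Triticum aestivum) were collected 21 days after anthesis, in mid grain filling, from tagged heads of each plot. The cultivars were Cordiale, Hereward, Istabraq, Malacca, Marksman and Xi 19. At Rothamsted in 2009 and 2010 each was grown with 100, 200 or 350 kg of nitrogen per hectare (N100, N200 and N350), and at Rothamsted in 2011 and at RAGT in 2010 and 2011 the plots analysed had N200. This gave 54 groups on 161 arrays, 53 groups of 3 plots and 1 group of 2 plots, with each array from 1 plot. The labels call the plots of a group biological replicates, and precision is limited by how many arrays a group has.

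Values were log2 signals after RMA, the authors' background correction, normalization and summary of probes. They ran from 1.59 to 15.06 over the table, and 2 arrays deviated from their group mean by more than 2 times the median deviation. No 2 arrays held identical values. The 1st percentile of an array was 2.29 to 2.36 in 2009, 2.12 to 2.19 in 2010 and 2.57 to 2.61 in 2011, so the distributions of the seasons did not overlap there. Endosperm storage genes such as gliadins had a mean log2 signal between 12.38 and 12.65 in every combination of site, year and nitrogen, so the markers of the labelled tissue were present.

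The members differed widely in signal, and most were dim. Their means over all arrays ran from 2.25 to 14.63, with a median of 4.01 against 5.36 over all probe sets tested. Of the 59 members, 12 had a mean of at least 6, the level used here to call a probe set bright, 47 were below it and 29 were below 4. Just inside that level lay 102.S1_at at 6.27 and just outside it 147.S1_at at 5.95. Different probe sets have different probes, so a lower signal need not mean a lower amount of RNA.

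The brightest member was 1.A1_x_at, annotated rbcl, at 14.63, with a lowest value of 14.24 and a highest of 14.89. That lies close to the top of the scale, where an array responds less to a change in RNA. The next were 219.S1_x_at at 12.50, 205.S1_x_at at 11.18 and 215.S1_s_at at 10.09, none of which has a gene in the annotation. The other bright members were 60.S1_x_at at 9.33, 176.S1_x_at at 8.59, 18.S1_at at 8.40, 24.A1_s_at at 8.25, 152.S1_at at 7.70, 181.S1_at at 7.69, 196.S1_at at 7.47 and 102.S1_at. Of these, 181.S1_at and 196.S1_at are annotated rbcl.

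The ending of an ID tells how specific its probes are by design. Probe sets ending in _at were built to match 1 transcript, those in _s_at share all probes with related transcripts, and those in _x_at hold some probes that also match other sequences. The cluster held 45 members ending in _at with a median mean of 3.83 and 12 ending in _x_at with 5.64. The 2 members ending in _s_at had means of 8.25 and 10.09. Among the 6 members with the highest signals, none ended in _at. The 24 annotated members had a median of 3.56 and the 35 without a gene 4.12. Annotated members whose sequence entry starts with BE numbered 13, and none of these reached 6, with means from 2.38 to 4.79. Of the 10 whose entry starts with CA, 2 did, with means from 2.53 to 7.69.

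How closely the members moved together was described by their group means, which does not show whether they read the same RNA. Over the 54 group means, after the mean of each combination of site and year was taken off, the 66 pairs of bright members had a median Pearson r of 0.572, with a range from -0.126 to 0.964. The points share the arrays and their normalization. The closest pair was 176.S1_x_at with 205.S1_x_at at 0.964, and 60.S1_x_at with 176.S1_x_at and 205.S1_x_at with 219.S1_x_at both reached 0.952. The member 18.S1_at stood apart, with a median r of 0.209 to the other bright members. The 2 probe sets of 147.S1, one ending in _at and one in _x_at, had r = 0.857, those of 15.S1 had 0.704, those of 54.S1 had 0.433 and those of 201.S1 had 0.225.

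Between the sites in 2010, every member called differed in the same direction. At N200 in that year, 31 of 59 members were higher at RAGT than at Rothamsted and 0 were lower (52.5%), against 15.9% of all 61178 probe sets called higher. Members share the arrays, and group means of the bright ones moved together, so the calls counted here and below are not separate results. Calls were made by limma at a Benjamini-Hochberg adjusted p under 0.05 over all probe sets, with 18 plots per site, and 30.5% of all probe sets were called in either direction. The median difference over the members was 0.17 on the log2 scale, against 0.02 over all probe sets. Among the 12 bright members 11 were called, with a median of 0.42, where 45.2% of all bright probe sets were called and their median was -0.02. Caryopses were read whole, so a change in the share of a tissue and a change in RNA per cell cannot be told apart in any of these differences. Which tissue gave the signal was not tested.

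The largest difference belonged to 215.S1_s_at. At RAGT in 2010 its lowest, median and highest plots were 10.17, 10.87 and 11.25, and at Rothamsted 9.25, 9.88 and 10.83. All 18 RAGT plots lay above the Rothamsted median and 9 of them above the highest Rothamsted plot. The means were 10.81 and 9.93, a difference of 0.88 (SE 0.11, 1.84-fold, limma adjusted p = 4.37e-10).

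The member with the smallest p was 219.S1_x_at. Its RAGT plots ran from 12.55 over a median of 12.95 to 13.28, and its Rothamsted plots from 12.01 over 12.32 to 13.11. The groups overlapped, while 4 RAGT plots exceeded every Rothamsted plot, and all 18 exceeded the Rothamsted median. The difference was 0.49 (SE 0.06, 1.41-fold, limma adjusted p = 2.92e-10).

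The 3 members 60.S1_x_at, 176.S1_x_at and 205.S1_x_at, which followed each other closely over the groups, differed by similar amounts. The RAGT median of 60.S1_x_at was 9.89 against 9.22 at Rothamsted, a difference of means of 0.48 (SE 0.07, adjusted p = 6.04e-09). For 176.S1_x_at the medians were 8.97 and 8.43, with a difference of means of 0.43 (SE 0.05, adjusted p = 4.70e-10). For 205.S1_x_at they were 11.59 and 10.99, with a difference of means of 0.45 (SE 0.07, adjusted p = 3.65e-08). In 60.S1_x_at 1 RAGT plot at 8.47 lay below every Rothamsted plot, the lowest of which was 8.75.

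Of the 24 members annotated rbcl, 14 were called higher, 0 lower and 10 were not called, with differences from -0.06 to 0.56, and of the 35 without a gene 17 were called higher and 0 lower. The plots of 181.S1_at at RAGT had a lowest, median and highest value of 7.53, 7.87 and 8.23, and at Rothamsted 6.88, 7.45 and 8.07. Its difference was 0.42 (SE 0.06, adjusted p = 9.08e-08). For 196.S1_at the values were 7.08, 7.59 and 7.80 at RAGT and 6.83, 7.13 and 7.60 at Rothamsted, a difference of 0.42 (SE 0.07, adjusted p = 2.51e-06). All 18 RAGT plots of 181.S1_at and 17 of 196.S1_at lay above the Rothamsted median, and 8 of 196.S1_at exceeded every Rothamsted plot.

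The brightest member, 1.A1_x_at, differed by 0.17 (SE 0.03, adjusted p = 6.78e-05), from a median of 14.53 at Rothamsted to 14.69 at RAGT. The remaining bright members called were 152.S1_at at 0.37, 24.A1_s_at at 0.53 and 102.S1_at at 0.33. The exception was 18.S1_at, whose medians were 8.03 at RAGT and 8.17 at Rothamsted, with a difference of -0.09 (SE 0.05, adjusted p = 0.155). Of the 47 dim members 20 were called higher, against 20.7% of all dim probe sets called in either direction. Those with the smallest p were 146.S1_at at 0.46, 16.S1_at at 0.37 and 72.S1_at at 0.56, all annotated rbcl.

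In 2011 the same contrast did not show this. At N200, 0 members were higher at RAGT and 3 were lower (5.08%), against 4.17% of all probe sets called higher, 1.65% called lower and 5.82% called in either direction. The 3 were 215.S1_s_at at -0.42 (SE 0.11, adjusted p = 0.00978), 150.S1_at at -0.22 (SE 0.07, adjusted p = 0.0291) and 146.S1_at at -0.27 (SE 0.08, adjusted p = 0.0378). The RAGT plots of 215.S1_s_at ran from 8.89 over a median of 9.49 to 10.17, and the Rothamsted plots from 8.88 over 9.99 to 10.61. The count of 3 was not stable, since it was 1 without replicate 1, 1 without replicate 2 and 0 without replicate 3. It was also 0 without Hereward, and 1 without Cordiale or without Malacca. The share of all probe sets called was 3.5%, 1.75% and 1.81% without replicates 1, 2 and 3 in turn. It was 2.95% without Hereward, 3.36% without Cordiale and 6.43% without Malacca.

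The change between the years was itself tested as an interaction. It was called in 30 of 59 members (50.8%), against 29.4% of all probe sets. The RAGT minus Rothamsted difference was lower in 2011 than in 2010 in all 30, and in 9202 of the 17998 probe sets called. For 215.S1_s_at the interaction was -1.30 (SE 0.16, adjusted p = 4.57e-10). Among the bright members 10 were called, and the median over all 12 was -0.50 against 0.05 over all bright probe sets.

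The site difference of 2010 was seen in each cultivar, to different extents. The median over the 12 bright members of RAGT minus Rothamsted was 0.61 in Cordiale, 0.54 in Istabraq, 0.53 in Marksman, 0.36 in Hereward, 0.30 in Malacca and 0.16 in Xi 19. At least 11 of the 12 bright members were above 0 in each of the 6 cultivars. In 2011 the same medians ran from -0.22 in Hereward to 0.09 in Cordiale, and in Hereward and Istabraq 0 of the 12 were above 0. Whether the cultivars differed in these site differences was not tested.

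Other markers differed between the same sites. Of 12 probe sets of embryo and aleurone maturation genes, which mark the later stages of seed development, 11 were lower at RAGT than at Rothamsted in 2010 and 0 higher, with a median of -1.65. Those with the smallest p were Em and EM, which encode late embryogenesis proteins, at -2.57, -2.85 and -3.04. The mean log2 signal of all 12 probe sets per plot ran from 7.67 to 9.35 at RAGT and from 8.41 to 11.14 at Rothamsted. In 2011 it ran from 6.38 to 7.76 at RAGT and from 6.30 to 7.31 at Rothamsted, and 0 of the 12 were called. The part of these genes in the members' result was not tested.

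Nuclear genes of photosynthesis did not follow the members in that contrast. Of 9 probe sets for 6 such genes, 0 were higher and 2 were lower at RAGT in 2010, and the median was -0.09. Both calls were for Calvin cycle enzymes, FBP (fructose-1,6-bisphosphatase) at -0.23 (SE 0.05, adjusted p = 8.3e-05) and PRK (phosphoribulokinase) at -0.20 (SE 0.06, adjusted p = 0.00312). A second FBP probe set stood at 0.15 with an adjusted p of 0.0854. Outside the cluster 5 probe sets carry names of chloroplast genes, 4 of them rbcl and 1 atpA (a subunit of ATP synthase). Their signals cannot tell a chloroplast transcript from a nuclear copy either. Of the 5, 3 were higher and 0 lower. The rbcl probe set Ta.24976.1.S1_x_at rose by 0.12 and TaAffx.128896.17.S1_s_at by 0.39, and Ta.14567.2.S1_at by 0.25. With a mean of 14.65, Ta.24976.1.S1_x_at also lies close to the top of the scale. None of the mitochondrial genes in the list was matched to a probe set.

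Of 23 endosperm storage probe sets 7 were higher and 7 lower at RAGT in 2010, with a median of -0.05. The smallest p belonged to the serpins Serpin-Z2B at -0.54 and Serpin-Z1C at -0.62 and to the gamma gliadin GAG56D at -0.25. Other GAG56D probe sets stood at 0.27 (limma adjusted p = 0.0284) and -0.05 (limma adjusted p = 0.149). Signs of RNA quality moved little between the 2010 sites. The 3 prime minus 5 prime signal of 3 control genes was -1.08 ± 0.15 at RAGT and -1.09 ± 0.13 at Rothamsted, and the 18S rRNA control was 13.10 ± 0.26 and 12.94 ± 0.41 (SD, n = 18 each).

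Differences between nitrogen levels were mostly smaller than those between the 2010 sites. At N350 against N100, over 6 cultivars at Rothamsted in 2009 and 2010, 12 of 59 members were higher and 0 lower (20.3%), against 10.7% of all probe sets called higher and 23.0% called in either direction. The median over the members was 0.06 and over all probe sets 0.01. Among the bright members 5 of 12 were called, where 32.1% of all bright probe sets were called. The count depended on which arrays entered, as it was 2 without replicate 3, 5 without replicate 2 and 7 without Hereward. The share of all probe sets called fell too, from 23.0% to 7.86%, 16.4% and 18.1% in that order. The median over the members was 0.04, 0.07 and 0.05 in those fits.

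The member with the smallest p for nitrogen was the dim 122.S1_at. In 2009 its lowest, median and highest plots were 4.87, 5.60 and 5.92 at N100, 5.26, 5.75 and 6.40 at N200, and 5.30, 5.93 and 6.60 at N350. In 2010 the medians were 5.28, 5.69 and 5.68. The groups overlapped in both years, and the means over both years were 5.40 at N100, 5.72 at N200 and 5.83 at N350. N350 exceeded N100 by 0.42 (SE 0.06, 1.34-fold, limma adjusted p = 5.62e-08), with 5 of 6 cultivars above 0 in 2009 and 6 of 6 in 2010.

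The dim members 146.S1_at and 16.S1_at, both annotated rbcl, came next. The means of 146.S1_at were 4.70 at N100 and 4.97 at N350, a difference of 0.28 (SE 0.06, adjusted p = 0.000224), and those of 16.S1_at were 4.47 and 4.69, a difference of 0.22 (SE 0.05, adjusted p = 0.000281). In the bright members the differences were smaller, and none reached 0.2. The plots of 60.S1_x_at in 2010 had a median of 9.28 at N100 and 9.46 at N350, and over both years its difference was 0.18 (SE 0.05, adjusted p = 0.00212). The other bright members called were 205.S1_x_at at 0.17, 176.S1_x_at at 0.14, 152.S1_at at 0.14 and 196.S1_at at 0.13. The other 7 bright members were not called. Of these, 102.S1_at stood at 0.15, 24.A1_s_at and 219.S1_x_at at 0.11 and 181.S1_at at 0.09, while 215.S1_s_at stood at -0.16, 18.S1_at at -0.06 and 1.A1_x_at at -0.01. The value of 1.A1_x_at turned above 0 in 4 alternatives.

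At N200 against N100, 3 members were higher and 1 lower (6.78%), against 6.58% and 8.32% of all probe sets and 14.9% in either direction. The higher ones were 122.S1_at at 0.32 (SE 0.06, adjusted p = 0.000101), 146.S1_at at 0.21 (SE 0.06, adjusted p = 0.0091) and 16.S1_at at 0.14 (SE 0.05, adjusted p = 0.0373). The lower one was 215.S1_s_at at -0.22 (SE 0.08, adjusted p = 0.0462), with means of 9.99 at N200 and 10.21 at N100. Both 16.S1_at at 0.12 (adjusted p = 0.0647) and 215.S1_s_at at -0.20 (adjusted p = 0.0878) missed the threshold after quantile normalization. The count was 1 without replicate 2, without replicate 3, without Hereward or without Malacca, and it was 0 in either year alone. Of all probe sets 5.1%, 7.14%, 8.69% and 6.68% were then called in that order. In 2009 alone it was 0.0817% and in 2010 alone 6.48%. At N350 against N200, 0 members were called by limma, against 0.0131% of all probe sets called higher, 0.0245% lower and 0.0376% in either direction, and 7 had an unadjusted p under 0.05.

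The nitrogen difference was also compared between seasons and between cultivars. For N350 minus N100, 2010 minus 2009, limma called 0 members, against 0.690% of all probe sets, and 5 had an unadjusted p under 0.05. Between the 6 cultivars it called 0 members, against 0.0212%, and 9 had an unadjusted p under 0.05. The smallest adjusted p in that test was 0.319, for 48.S1_at.

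Of the 9 probe sets of nuclear photosynthesis genes, 6 were higher at N350 than at N100 and 0 lower, with a median of 0.20. The smallest p were those of OEE2 at 0.28 and OEE1 at 0.24, which stabilise the water-splitting site of photosystem II, and of PRK at 0.22. Of the 5 probe sets outside the cluster with names of chloroplast genes 0 were called. Of the 23 endosperm storage probe sets 11 were higher and 6 lower, led by Serpin-Z1C at 1.40, Serpin-Z2A at 1.15 and GAG56D at 0.44. Of the 12 embryo maturation probe sets 0 were called.

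Cultivars differed in most bright members, as they did in most bright probe sets of the array. At N200, over the 5 combinations of site and year, limma's F test called 21 of 59 members (35.6%), against 46.5% of all probe sets. It called 9 of 12 bright members, where 67.7% of all bright probe sets were called, so neither share stood far from its background. Among N200 plots, cultivar took a median of 16.2% of a bright member's variance, against 9.15% over all bright probe sets. In the dim members it took 3.8%, against 4.69% over all dim probe sets. Site and year accounted for 42.8% in the bright members, against 52.5% over all bright probe sets.

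Xi 19 had the highest cultivar mean of each of the 12 bright members. How often it was highest among all bright probe sets was not computed. The 12 are not separate results, since they share arrays and their group means moved together, with a median r of 0.572. The lead of Xi 19 over the next cultivar ran from 0.03 in 1.A1_x_at to 0.39 in 205.S1_x_at, and was 0.06 in 18.S1_at and in 152.S1_at. For 215.S1_s_at the cultivar means were 9.69 in Cordiale, 9.83 in Malacca, 10.03 in Marksman, 10.04 in Hereward, 10.28 in Istabraq and 10.46 in Xi 19, a range of 0.77 (adjusted p = 2.75e-07). The SD within a cultivar, which includes sites and years, ran from 0.51 to 0.61, so neighbours in that order lay within the spread of plots. After the mean of each site and year was taken off, Xi 19 stood at 0.40 ± 0.37 (SD, n = 15), and 12 of 15 plots were higher than 0.

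The closely tied members gave a narrower spread. In 60.S1_x_at all 15 plots of Xi 19 lay above their site and year mean, by 0.37 ± 0.14 (SD), and the cultivar means ranged over 0.58 (adjusted p = 2.83e-10). In 205.S1_x_at and 176.S1_x_at all 15 plots of Xi 19 also lay above, with ranges of 0.58 (adjusted p = 1.21e-10) and 0.52 (adjusted p = 6.77e-13). For 219.S1_x_at the means were 12.32 in Malacca, 12.45 in Cordiale, 12.52 in Hereward, 12.53 in Istabraq, 12.54 in Marksman and 12.89 in Xi 19, a range of 0.56 (adjusted p = 2.34e-10). The 5 cultivars other than Xi 19 lay within 0.22 of each other there. The SD within a cultivar, which includes sites and years, ran from 0.25 to 0.35. After the mean of each site and year was taken off, it ran from 0.17 in Istabraq to 0.26 in Cordiale. In Malacca 1 of 14 plots of that member lay above its site and year mean.

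Of the dim members, those with the smallest p were 146.S1_at, with a range of 0.53 (adjusted p = 1.5e-06), 48.S1_at, with 0.35 (adjusted p = 2.89e-06), and 79.S1_x_at, with 0.48 (adjusted p = 0.00036). In 146.S1_at, annotated rbcl, Xi 19 had a mean of 5.53 and no other cultivar a mean over 5.19. The bright 102.S1_at ranged over 0.59 (adjusted p = 1.29e-05), from 6.14 in Malacca to 6.73 in Xi 19. The highest of all 54 groups was a Xi 19 group in 10 of the 12 bright members, the exceptions being 1.A1_x_at and 102.S1_at, and in 24.A1_s_at that group held 1 plot far higher than its other plots. For 215.S1_s_at it was Xi 19 at RAGT in 2010, with a mean of 11.09, and the lowest was Cordiale at RAGT in 2011, with 9.12.

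Seasons gave the largest counts of calls, and these depend on how the seasons were put on one scale. The median of all probe sets was -0.15 for 2010 against 2009 at Rothamsted, 0.32 for 2011 against 2010 at Rothamsted and 0.30 at RAGT, on the log2 scale, so members are given relative to it. In 2010 against 2009, 14 members were higher and 38 lower (88.1%), against 18.1% and 63.2% of all probe sets and 81.3% in either direction. After quantile normalization of all arrays together the split was 21 and 17. In 2011 against 2010 it was 54 and 1 at Rothamsted, against 71.3% and 13.8% of all probe sets and 85.1% in either direction, and it was 30 and 6 after quantile normalization. At RAGT it was 38 and 7, against 70.7% and 11.6% and 82.3% in either direction, and it was 13 and 21 after quantile normalization. Signs of RNA quality also shifted between seasons. At Rothamsted with N200 the 3 prime minus 5 prime signal was -1.12 in 2009, -1.09 in 2010 and -0.81 in 2011. The 18S rRNA control was 12.31, 12.94 and 13.94. At RAGT they went from -1.08 to -0.81 and from 13.10 to 13.83 between 2010 and 2011. The part of the 18S control in the season counts was not tested.

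Some members moved against the median of all probe sets by more than these shifts. At RAGT the mean of 215.S1_s_at went from 10.81 in 2010 to 9.55 in 2011, which was -1.56 relative to the median of all, and after quantile normalization its difference was -1.65. The same contrast gave -0.85 in 219.S1_x_at, -0.71 in 60.S1_x_at, -0.60 in 205.S1_x_at and -0.59 in 176.S1_x_at, relative to that median. At Rothamsted the same members went by -0.30, -0.29, -0.14, -0.03 and -0.12 in that order. Without that correction all 5 lay above 0 at Rothamsted, with 60.S1_x_at, 205.S1_x_at and 176.S1_x_at called higher, and all 5 lay below 0 under quantile normalization. There 215.S1_s_at at -0.34 (adjusted p = 0.00457), 219.S1_x_at at -0.29 (adjusted p = 2.35e-05) and 60.S1_x_at at -0.16 (adjusted p = 0.0411) were called lower.

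The member with the largest drop in 2011 was the dim 229.A1_x_at, annotated rbcl and named here after its values were seen. At RAGT its lowest, median and highest plots were 5.20, 5.74 and 6.16 in 2010 and 3.89, 4.26 and 4.52 in 2011, and the years did not overlap. The means were 5.72 and 4.21, a difference of -1.51 (SE 0.16, adjusted p = 2.84e-15), or -1.81 relative to the median of all. At Rothamsted the difference was -1.19 (SE 0.16, adjusted p = 4.81e-11), and it was the 1 member called lower there. After quantile normalization the differences were -1.69 at RAGT and -1.43 at Rothamsted.

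Other members rose at Rothamsted in 2011 under either scale. There 152.S1_at went from 7.52 to 8.42, 0.57 above the median of all, and 18.S1_at from 8.16 to 8.84, 0.35 above it. The dim members 46.S1_at and 126.S1_at, the latter annotated rbcl, gained 1.01 and 0.92 relative to the median of all. Between 2009 and 2010 at Rothamsted 46.S1_at fell from 5.39 to 4.54, and 47.S1_at and 150.S1_at also fell, by 0.52 and 0.45 relative to the median of all. In that step 60.S1_x_at stood at 0.39 and 196.S1_at at -0.26 relative to the median of all.

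The probe sets outside the cluster whose group means followed the bright members most closely were ranked by Pearson r with the mean of the 12 bright members, over the 54 group means after each site and year mean was taken off. The nearest were Ta.28038.1.S1_a_at at 0.858, Ta.13577.1.S1_at at 0.852, Ta.1072.1.S1_at at 0.840, Ta.10012.1.S1_at at 0.831 and TaAffx.24287.1.S1_at at 0.828, none with a gene in the annotation. Among probe sets with a named gene the nearest were XTH, a cell wall xyloglucan enzyme, at 0.743, the rbcl probe set Ta.24976.1.S1_x_at at 0.674, ALMT1-1, a malate transporter, at 0.657, OEE2 at 0.623 and FBP at 0.620. The bright members themselves ran from 0.292 in 18.S1_at to 0.963 in 176.S1_x_at on this measure, which includes each of them in the mean. The points share arrays and normalization.

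A pair of members rose far above their groups in the same 4 plots. In 24.A1_s_at, Xi 19 at N350 replicate 2 read 11.86, Cordiale at N350 replicate 1 read 11.28, Istabraq at N100 replicate 1 read 11.26 and Xi 19 at N100 replicate 2 read 10.55, all at Rothamsted in 2009. The next highest of all 161 plots read 8.80, and the other plots of those groups did not pass 8.32. In 229.A1_x_at, annotated rbcl, the same plots read 7.61, 7.51, 7.75 and 6.39, and the others of their groups did not pass 5.10. The deviations of plots from their group means had a Pearson r of 0.914 between these members over 161 plots, and of 0.471 over the other 157.

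In those plots 24.A1_s_at deviated from its group mean by 1.59 to 2.44, and the other 11 bright members by -0.25 to 0.38. Of their 44 deviations 26 were above 0. In the Xi 19 N350 plot 152.S1_at was 0.32 and 196.S1_at 0.30 above the group mean, 1.A1_x_at 0.0026 above and 205.S1_x_at -0.06 from it. In the Istabraq plot 215.S1_s_at was 0.38 and 152.S1_at 0.27 above, and 196.S1_at lay above its group mean in all 4 plots. Without the 4 plots, the difference of 24.A1_s_at for N200 minus N100 turned to 0.03 and that for 2010 minus 2009 turned to 0.01. For N350 against N100, the calls of 152.S1_at and 196.S1_at were lost without them, while the differences went from 0.14 to 0.12 (adjusted p = 0.07) and from 0.13 to 0.12 (adjusted p = 0.101). The member 219.S1_x_at was called, at 0.12 (adjusted p = 0.0479) against 0.11 with all plots (adjusted p = 0.0516). For N200 against N100, 16.S1_at at 0.12 (adjusted p = 0.0784) and 215.S1_s_at at -0.21 (adjusted p = 0.0694) were no longer called.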

How the data were processed

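Total RNA of caryopses was hybridised to 1 Affymetrix wheat array per plot. The authors deposited a log2 signal for each probe set, obtained with RMA per the submitters' processing notes. The RMA version is not given in the sources used here, nor whether seasons were run together. All 161 arrays entered. Of 61288 probe sets 110 controls were left out. In R 4.3.3, with data.table for input (version 1.17.8), limma 3.58.1 estimated 54 group means, with 107 residual degrees of freedom. Contrasts weighted groups equally, tests were two-sided, and p-values were adjusted over 61178 probe sets. The fit was tested on simulated arrays with independent noise, which did not hold the likeness of plots with the same replicate number. A log2 change of 0.25 was recovered in 96% of changed probe sets for N350 against N100. It was 60% for the sites in 2010, 22% for the change between years and 70% for cultivars. False calls were 5.26% to 7.04% of calls.

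Members were taken by ID start alone, but this cluster and the gene lists were chosen for description with earlier results of these data known. Members with a mean of at least 6 were described in full, and of the others the 3 with the smallest p per result, with at most 8 members with full statistics per result. Gene lists are given by counts and by the 3 smallest p. Alternatives changed the set of members, the normalization, the arrays, weights or covariates entered, or left out a replicate, season or cultivar. Gene names come from GEO's platform annotation. Sequences were not used here.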

Additional observations from a re-analysis of the deposited data

Results flagged for a closer look

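The difference between RAGT and Rothamsted at N200 was not the same in 2010 and 2011, by a test of that change itself (limma interaction, adjusted over all probe sets). It was called in 30 members, and 29.4% of all probe sets were called. The interaction, as RAGT minus Rothamsted in 2011 minus the same in 2010, was -1.2958 in 215.S1_s_at, -0.5895 in 219.S1_x_at, -0.4984 in 176.S1_x_at and -0.5991 in 60.S1_x_at. In 205.S1_x_at it was -0.5973 and in the annotated rbcl members 146.S1_at, 181.S1_at and 196.S1_at it was -0.7270, -0.4811 and -0.5371.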

How the results depend on the processing

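Of the counts of members called, 184 recomputed under another setting stayed within 1.5 times the value reported and 40 did not. Of values for single members 1961 kept direction and call, 120 lost the call, 24 gained one and 17 turned direction. The causes were not tested, apart from fewer members or arrays entering. The number of arrays and, in 1.A1_x_at, the top of the scale limit precision.

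With the 28 probe sets annotated rbcl as members, the counts were 4 for N350 against N100, 2 for N200 against N100, 7 for cultivars, 26 for 2010 against 2009, 26 and 22 for 2011 against 2010 at Rothamsted and RAGT, 17 for the sites in 2010 and 15 for the change between years. The shares of all probe sets called stayed as given above. With only probe sets of mean at least 6, the counts of 12 members were 7, 1, 10, 9, 9, 9, 11 and 10 in that order, and 1 for the sites in 2011. Of all such probe sets 35.4%, 25.5%, 71.5%, 73.4%, 83.8%, 83.9%, 48.8% and 45.4% were called in that order, and 14.7% for the sites in 2011. Only the arrays compared gave 7 for N350 against N100 and 7 for the sites in 2011. There 17.5% and 19.9% of all probe sets were called. Array weights gave 9 for N200 against N100, 34 for cultivars and 10 for the sites in 2011. They raised the calls over all probe sets as well, to 24.9%, 62.7% and 22.0% in that order. In 2009 alone N350 against N100 had 1 call and N200 against N100 had 0, and in 2010 alone the latter had 0. Of all probe sets 0.394%, 0.0817% and 6.48% were called in that order. Quantile normalization gave 36 for 2011 against 2010 at Rothamsted, with 69.7% of all probe sets called.

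Without a cultivar, N350 against N100 gave 7 without Hereward. N200 against N100 gave 1 without Hereward, 1 without Malacca and 2 without Marksman, and the sites in 2011 gave 1 without Cordiale, 0 without Hereward and 1 without Malacca. Of all probe sets 18.1% were called for N350 against N100. For N200 against N100 it was 8.69%, 6.68% and 9.31%, and for the sites 3.36%, 2.95% and 6.43%, in those orders. Leaving out each replicate number in turn gave 2 to 10 for N350 against N100, 1 to 3 for N200 against N100, 14 to 19 for cultivars, 23 to 28 for the sites in 2010, 0 to 1 in 2011, and 21 to 26 for the change between years. In the seasons it gave 49 to 50, 52 to 55 and 43 to 44.

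Of the directions that turned, 60.S1_x_at in 2011 against 2010 at Rothamsted was called both ways, higher as deposited and lower (adjusted p = 0.0411) after quantile normalization. In the same comparison 215.S1_s_at and 219.S1_x_at, not called as deposited and not among the 17, also turned and were called lower, at -0.3398 and -0.2855. The other 16 had no call after turning. In 1.A1_x_at, N350 minus N100 ran from -0.0347 to 0.0110 when each replicate was left out in turn, and was 0.0074 in 2009 alone, 0.0085 without the arrays far from their group and 0.0121 without Malacca. N200 minus N100 in 2010 alone was -0.0145 in 181.S1_at and -0.0049 in 196.S1_at. In 24.A1_s_at, it was 0.0324 without the 4 high plots and 2010 minus 2009 was 0.0126. Under quantile normalization, 2011 minus 2010 at Rothamsted was -0.0945 in 176.S1_x_at, -0.1184 in 205.S1_x_at and -0.1578 in 60.S1_x_at, and at RAGT -0.1079 in 181.S1_at. For the sites in 2011, 18.S1_at was 0.0358 without Hereward, and 24.A1_s_at was -0.0205 after quantile normalization, from -0.0324 to 0.0468 when each replicate was left out in turn, -0.0060 without Malacca and -0.0299 without Xi 19.

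With the replicate number as a block within each site and year, the counts were 13 for N350 against N100, 4 for N200 against N100, 23 for cultivars, 31 for the sites in 2010, 3 in 2011 and 29 for the change between years. The seasons gave 52, 55 and 45, and the other comparisons 0. Of all probe sets 24.5%, 16.7%, 48.6%, 31.9%, 7.18% and 31.0% were called in the first order. In the seasons it was 81.9%, 85.5% and 82.7%, and in the other comparisons from 0.0392% to 1.24%. Same-numbered plots had a mean correlation of deviations of 0.126 and 53.4% of 1036 pairs were over 0.1, and 100 of 161 arrays were closest to their own number, a hint from the data and not the design. Settings with the far arrays, the 4 plots or a cultivar left out were chosen after seeing the data.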
